A study of Mus musculus with 7 samples.

Results

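The abundant non-coding RNA genes of CD4 T cells sorted in a mouse model of liver tumours are described here. They are the 60 rows that the deposited table of 15588 genes marks as non-coding and that averaged at least 20 CPM (counts per 1000000 counts of the library) over all 7 libraries. The genes were thus chosen by their mean level in these same libraries, and that level is a description, not a finding. The table holds 2320 non-coding rows. Gene expression had been measured by RNA sequencing of Mus musculus CD4 T cells (helper T lymphocytes) after an orthotopic transplant of hepatocellular carcinoma, that is, a tumour placed in the organ it comes from. The model had stood for 0 days (2 libraries) or 7 days (5 libraries). Sample titles call the cells tumour infiltrating at day 0 and at day 7 alike. The labels do not give strain, sex, age or tumour line, nor the tissue taken on day 0. Whether each library is a mouse of its own is not stated either, and p-values then measure the spread of these libraries alone, which may be technical.

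Libraries are named by the last digit of their column (day 0 libraries 2 and 3, day 7 libraries 1, 2, 3, 5 and 6), a digit that does not match the title numbers. Total counts ran from 21910818 to 28333855. The 6 T cell markers Cd3e, Cd3d, Cd3g, Cd4, Cd5 and Cd28 summed to between 2577 and 3504 CPM in every library. Cd4 alone was less even, at 382 and 398 CPM at day 0 and at 476 to 944 CPM at day 7. Its highest values were 909 and 944 CPM in day 7 libraries 5 and 6, and the groups did not overlap (edgeR adjusted p = 0.450). Transcripts of other cell types were spread unevenly. Day 7 libraries 5 and 6 held 204 and 177 CPM of Cd8a and Cd8b1 together, where the others held between 2.29 and 18.3 CPM. The same pair held 241 and 133 CPM of 7 myeloid markers, against at most 27.9 CPM elsewhere. Of the 7, 6 had higher means at day 7 and 1 a lower mean. Only Csf1r among them was called, as higher at day 7 (edgeR adjusted p = 0.0491). It was at 0 CPM in both day 0 libraries and at 0.148 to 41.4 CPM at day 7. By day, a list of 6 dendritic cell genes summed to at most 27.3 CPM at day 0 and to 50 to 234 CPM at day 7. That rise came through Cd74, H2-Aa and H2-Ab1, with day means of 6.89 and 58, 1.70 and 27.6, and 1.52 and 18 CPM. Xcr1 (5.17 and 3.34 CPM) and Zbtb46 (2.48 and 1.95 CPM) had lower means at day 7, and Flt3 had 1.11 and 2.21 CPM. The 4 B cell genes summed to at most 2.58 CPM at day 0 and to 11.9 to 33.5 CPM at day 7. These are bulk libraries, in which fewer cells of a type and less RNA per cell cannot be told apart.

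Long non-coding RNAs are transcribed and usually spliced and polyadenylated like messenger RNAs but are not known to be translated into a conserved protein. Some act where they are made, on neighbouring genes or on nuclear bodies such as speckles and paraspeckles. A class called snoRNA hosts carries small nucleolar RNAs (snoRNAs) in its introns. The introns are processed into guides for the modification of ribosomal RNA, while the spliced exons of several hosts are degraded quickly during translation. In T cells, levels of the host Gas5 are known to follow growth state. Imprinted non-coding RNAs such as Peg13 are made from 1 parental chromosome.

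By Entrez number, 54 of the 60 genes matched RefSeq (GRCm38.p6). Known snoRNA genes lay within 7 of them, which are called snoRNA hosts here. A further 12 carried curated names, 35 had provisional symbols and 6 had a gene number alone. Zfp33b, non-coding in the deposited table, is protein-coding in RefSeq. The rule set no condition on the difference between days: 55 genes averaged at least 20 CPM in both groups, 4 fell short at day 0 and 1 at day 7. At the edge of the rule, Zfp33b and LOC118567379 averaged 20.3 and 20.6 CPM, and Gm39876 and Gm51821 just missed it at 19.6 and 19.4 CPM. All 60 entered the test, and the smallest count of any of them in any library was 46.

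The starts of the snoRNA hosts are shown because many genes of this class, like those for ribosomal proteins, begin their RNA with a run of C and T (the 5′ terminal oligopyrimidine tract), by which translation of their RNA is controlled. RefSeq gives these 50 bases around each annotated start (GRCm38.p6, on the transcribed strand, with the start at base 26). Capitals mark the longest run of C and T that begins between 5 bases before and 10 after the start.
Gas5, first start, chr1:161034576-161034625, + strand: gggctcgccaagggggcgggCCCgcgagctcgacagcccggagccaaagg
Gas5, second start, chr1:161035141-161035190, + strand: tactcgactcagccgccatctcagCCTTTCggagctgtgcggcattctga
Snhg1, chr19:8723462-8723511, + strand: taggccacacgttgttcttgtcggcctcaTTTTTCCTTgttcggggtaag
Snhg8, chr3:123508312-123508361, - strand: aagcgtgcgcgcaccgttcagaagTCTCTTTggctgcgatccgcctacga
Zfas1, chr2:167062909-167062958, + strand: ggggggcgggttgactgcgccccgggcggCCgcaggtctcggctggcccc
2410006H16Rik, chr11:62602852-62602901, + strand: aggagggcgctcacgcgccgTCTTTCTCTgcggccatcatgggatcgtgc
Snhg12, chr4:132308653-132308702, + strand: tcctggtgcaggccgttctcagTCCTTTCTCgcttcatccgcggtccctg
Snhg5, chr9:88522873-88522922, - strand: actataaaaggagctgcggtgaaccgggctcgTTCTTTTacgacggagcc
A run of at least 5 that began in this window was present at a start of 6 of the 7 hosts. In Snhg1 and Snhg5 the run began at bases 5 and 8 of the annotated RNA, which thus does not begin with it. Gas5 counted through its second start, as its first had a run of 3. The exception was Zfas1, whose listed start had no run longer than 2 that began in this window. Of all 32851 promoters in the table, 29.9% held a run of at least 5, a share counted by promoter and not by gene.

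By day 7, 3 of the 60 genes had fallen and none had risen. Peg13, a paternally expressed imprinted RNA, fell by 1.8 ± 0.26 (standard error) on the log2 scale. Gm36723, a long non-coding gene beyond Id2, fell by 1.03 ± 0.18, and Gm19585, a long non-coding gene beyond Satb1, fell by 0.75 ± 0.19. These are calls of edgeR's quasi-likelihood test at a Benjamini-Hochberg adjusted p below 0.05 over 12929 genes. The share of the 60 called lower was 5%, beside 0.472% of all genes tested, 0.859% of the 7098 tested genes of at least 20 mean CPM and 0.225% of the 1331 tested non-coding genes. Calls in the other direction made up 1.07%, 1.7% and 0.0751% of those sets, and calls in either direction 1.54%, 2.56% and 0.301%.

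Weaker differences were counted as well. At an unadjusted p below 0.05 there were 11 of the 60 genes (18.3%), 8 lower and 3 higher, beside 10.1% of all genes tested, 14.1% of those of at least 20 mean CPM and 3.98% of the non-coding ones. For a rise, edgeR called 0 of the 60, limma-voom 0 and DESeq2 2 (Gm38733 and LOC118567469). Every day 7 library was below both day 0 libraries for 7 of the 60 genes (11.7%), beside 7.15%, 8.69% and 6.61% of the same 3 sets. Every day 7 library was above both for 3 genes (5%), beside 7.99%, 10.4% and 1.88%. The median log2 change of the 60 was -0.09, beside 0.04 over all genes tested.

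**Figure D1:**
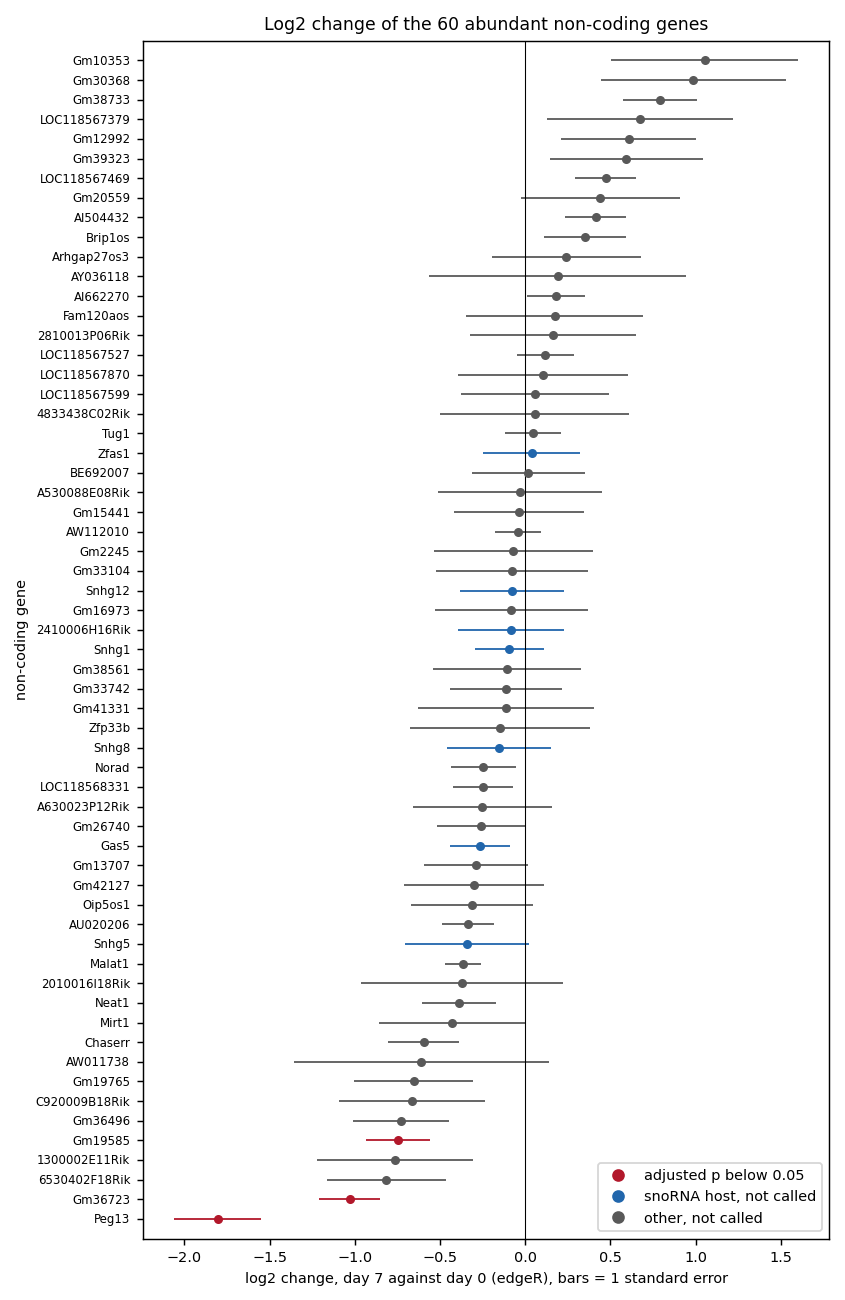
Log2 change from day 0 to day 7 (horizontal axis, edgeR, bars show 1 standard error) of the 60 abundant non-coding genes (vertical axis, ordered by change). The 3 red genes passed the test, with Peg13 at -1.8, while the 7 blue snoRNA hosts lie between -0.34 and 0.04.

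Peg13 (Entrez 353342) had the steepest fall of the 60. Its level was 128 and 154 CPM at day 0, and 39.3, 36.2, 48.5, 32.0 and 49.0 CPM in the day 7 libraries, in the order 1, 2, 3, 5 and 6 used throughout. The lowest day 0 library was thus above every day 7 library by a wide margin, and the day 7 libraries lay close together (141 ± 18.3 CPM, SD, n = 2, against 41 ± 7.54 CPM, n = 5). The edgeR adjusted p was 1.49e-04, and the call was kept in all 15 alternative settings, with log2 changes from -1.93 to -1.66. In mouse, Peg13 is made from within Trappc9, whose protein takes part in vesicle traffic. Both are annotated on the same strand (that of Peg13 in GENCODE M21), so strand could not separate any reads they share.

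Trappc9 itself was not called. It stood at 19.3 and 15 CPM at day 0 and at 17.8, 35.0, 42, 30.1 and 28.6 CPM at day 7, so that the groups overlapped (log2 change 0.82 ± 0.46, edgeR adjusted p = 0.595). Peg13 counts were 664% and 1023% of those of Trappc9 in the day 0 libraries and between 103% and 221% at day 7. The other genes of the domain that were tested were Ago2 (a small-RNA effector), Chrac1 (a histone-fold subunit) and Ptk2 (focal adhesion kinase). Their log2 changes were -0.01 ± 0.21, -0.08 ± 0.49 and -0.89 ± 2.2. Ptk2 was near the floor, at 3.49 and 8.54 CPM at day 0 and 0 to 7.14 CPM at day 7. Of the 4 tested coding genes of the domain 0 passed edgeR's test, 0 had an unadjusted p below 0.05 and DESeq2 called 0. Among 10 listed imprinted non-coding RNAs, 4 were tested and Peg13 alone was called. The others tested, Kcnq1ot1, Airn and Snhg14, averaged only 12.7, 3.32 and 2.05 CPM. The standard errors of their log2 changes were 0.87, 2.6 and 2.9, so a change in them could hardly have been called.

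Gm36723 (Entrez 328066) and Gm36496 (Entrez 102640433) lie in 1 long gene-poor stretch between Id2, an inhibitor of E-protein transcription factors that lymphocytes use in effector states, and Rnf144a. Gm36723 stood at 306 and 255 CPM at day 0 and at 160, 129, 109, 137 and 161 CPM at day 7 (edgeR adjusted p = 0.00147). Each day 7 library was well below both day 0 libraries. Gm36496 stood at 80.2 and 84.4 CPM and at 57.1, 61.7, 46, 50.3 and 37.3 CPM. It also did not overlap between groups, but was not called (log2 change -0.73 ± 0.28, adjusted p = 0.304). Id2 stood at 789 and 853 CPM at day 0 and between 622 and 802 CPM at day 7 (log2 change -0.24 ± 0.12, adjusted p = 0.50), and Rnf144a had a log2 change of -0.11 ± 0.35. The call of Gm36723 was lost without day 0 library 2, where its log2 change was -0.89 (adjusted p = 0.0505).

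Gm19585 (Entrez 100503190) lies beyond Satb1, a chromatin organiser of T cells. It stood at 181 and 206 CPM at day 0 and at 132, 109, 127, 114 and 103 CPM at day 7 (193 ± 17.6 against 117 ± 12.4 CPM, edgeR adjusted p = 0.0407). The groups were separate. Satb1 stood at 746 and 794 CPM at day 0, and at 716, 603, 718, 505 and 411 CPM at day 7. These groups were separate too, with day 7 libraries 5 and 6 lowest, but Satb1 was not called (log2 change -0.40 ± 0.18, adjusted p = 0.474). The call of Gm19585 was lost with limma-voom (adjusted p = 0.0620), without day 7 libraries 5 and 6 (0.0689) and without any 1 library other than day 7 library 1 (0.0565 to 0.472), while its log2 change stayed between -0.83 and -0.64.

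Beside these 3 falls, the summed level of the NK cell list stood lower at day 7 through 1 gene, Klrb1c. The 7 genes Ncr1, Klrb1c, Klra8, Klra4, Eomes, Tyrobp and Fcer1g summed to 654 and 723 CPM at day 0 and to between 231 and 474 CPM at day 7, and 0 of its 6 tested members passed. Klrb1c stood at 624 and 706 CPM at day 0 and at 159 to 405 CPM at day 7. The other 6 genes had higher means at day 7, and Eomes (6.61 and 4.69 CPM against 14.8 to 29.0 CPM) and Fcer1g (11.4 and 0 CPM against 12.5 to 22.4 CPM) did so without overlap. Klra8 and Klra4 were at 0 in both day 0 libraries, and Ncr1 was at 0.0411 and 6.56 CPM there. The part of the cells that express these genes in the falls was not tested.

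**Figure D2:**
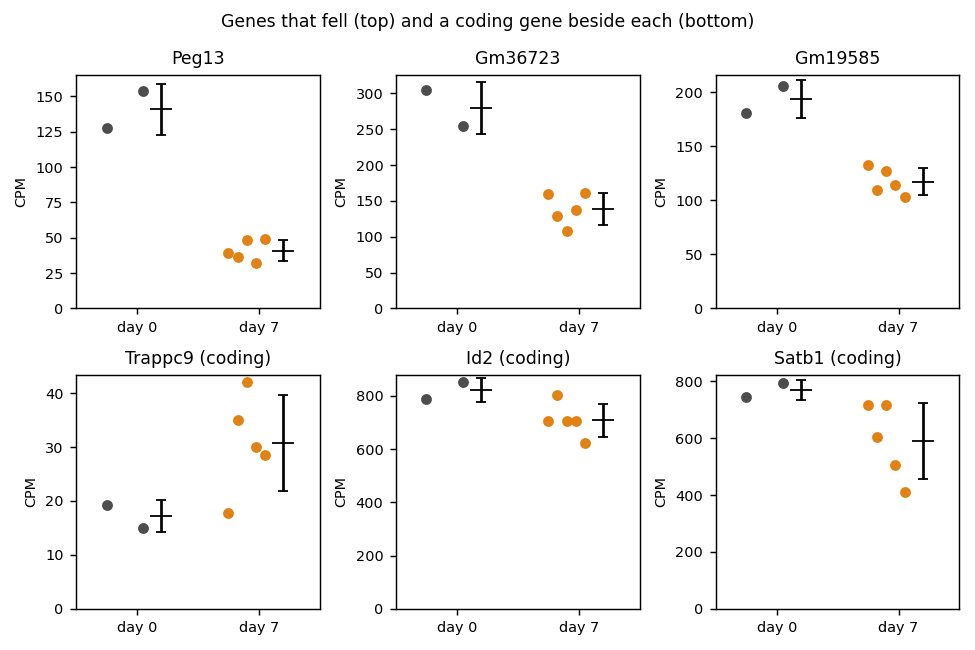
CPM by library (points) with mean and SD (bars) at day 0 (2 libraries, grey) and day 7 (5 libraries, orange) for the 3 genes that fell and, below each, a coding gene beside it. Peg13, Gm36723 and Gm19585 separate the days, Trappc9 and Id2 overlap, and Satb1 is lowest in day 7 libraries 5 and 6.

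The promoters of Gm36723 and Gm19585 are shown as those of called genes that RefSeq lists (GRCm38.p6, 250 bases before the start to 50 after it). Capitals mark matches to 3 words searched on both strands, TGACTCA (AP-1 factors), TGTGGT (RUNX factors) and CCGGAA (ETS factors).
Gm36723, chr12:25355651-25355950, + strand: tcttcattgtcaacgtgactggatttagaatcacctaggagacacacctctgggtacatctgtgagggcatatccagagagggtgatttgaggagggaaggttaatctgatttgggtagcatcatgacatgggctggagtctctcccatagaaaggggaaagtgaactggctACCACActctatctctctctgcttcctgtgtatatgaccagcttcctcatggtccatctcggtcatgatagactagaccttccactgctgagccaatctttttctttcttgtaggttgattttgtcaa
Gm19585, chr17:52149039-52149338, + strand: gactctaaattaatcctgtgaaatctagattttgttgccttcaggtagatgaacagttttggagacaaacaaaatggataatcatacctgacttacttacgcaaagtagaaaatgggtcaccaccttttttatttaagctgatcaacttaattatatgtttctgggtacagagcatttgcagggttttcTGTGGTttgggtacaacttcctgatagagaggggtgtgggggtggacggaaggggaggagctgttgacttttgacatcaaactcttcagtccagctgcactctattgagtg
Each held 1 match to the RUNX word, as did 16.8% of all listed promoters at least once, and no match to the AP-1 or ETS words (5.2% and 14.9% of promoters). The words do not overlap each other here. Both promoters are poor in CG pairs, with 2 in 300 bases where the median promoter held 7.

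None of the 7 snoRNA hosts was called in either direction. Together they hold 29 RefSeq snoRNA genes, 8 each in Gas5 and Snhg1, 4 in Snhg12, 3 each in Zfas1 and 2410006H16Rik, 2 in Snhg5 and 1 in Snhg8. The groups overlapped for all 7, and the lowest unadjusted p was 0.140 (lowest edgeR adjusted p 0.636). Their log2 changes had a median of -0.09 and 6 of the 7 were negative.

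Gas5 (Entrez 14455), named for its rise on growth arrest, stood at 268 and 204 CPM at day 0 and at 193, 192, 161, 217 and 233 CPM at day 7 (log2 change -0.27 ± 0.17, edgeR adjusted p = 0.636). Snhg1 (Entrez 83673) stood at 143 and 121 CPM and at 145, 104, 129, 121 and 129 CPM. Both day 0 values of Snhg1 lie within the day 7 range. Snhg5 (Entrez 72655) stood at 64.7 and 45.7 CPM at day 0, at 29.3, 25.6 and 45.5 CPM in the day 7 libraries numbered 1, 2 and 3, and at 60.8 and 60.3 CPM in libraries 5 and 6. It had the widest day 7 spread of the hosts relative to its mean (SD over mean 0.375), and its high day 7 libraries were those with CD8 and myeloid transcripts, whose part in it was not tested. Snhg8 was lowest in day 7 library 5 at 34.2 CPM, with 60.7 to 81.1 CPM in the other day 7 libraries.

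Snhg12, which carries 4 snoRNAs, stood at 60.3 and 45 CPM at day 0 and at 43.7 to 54.4 CPM at day 7, where its SD over the mean was the lowest of the 7 hosts (0.0842). Zfas1 ranged from 44.0 to 75.9 CPM over the 7 libraries and 2410006H16Rik from 41.5 to 81.6 CPM. The hosts together took 0.0718% and 0.0624% of all counts at day 0 and between 0.0539% and 0.0684% at day 7. With these libraries, changes of the size seen for single hosts could not be told from the spread.

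**Figure D3:**
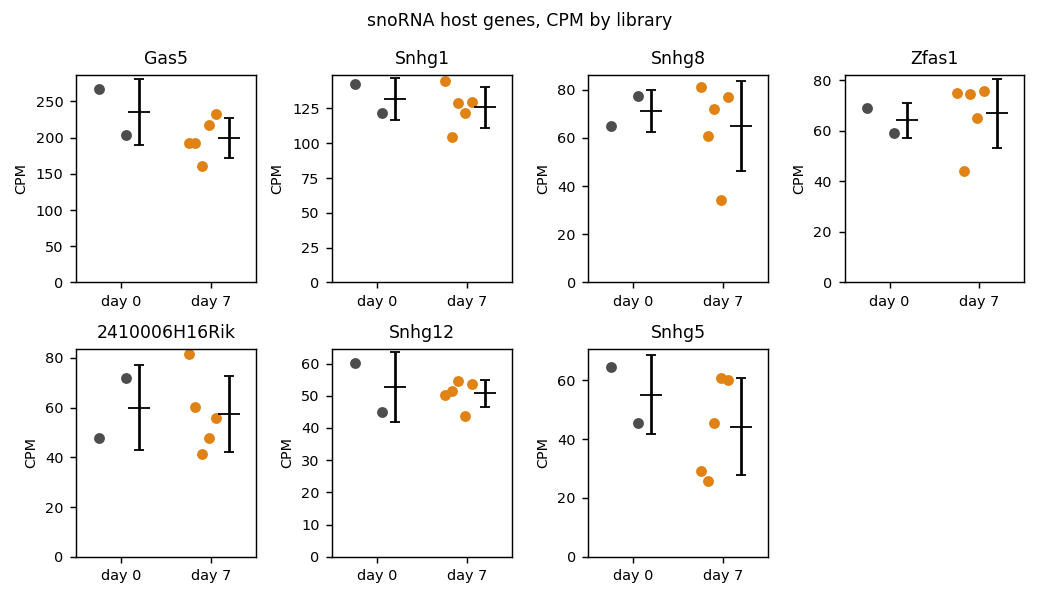
CPM by library of the 7 snoRNA host genes at day 0 (2 libraries, grey) and day 7 (5 libraries, orange), with mean and SD. In every panel the groups overlap. Snhg5 runs from 25.6 to 60.8 CPM within day 7.

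Genes of the wider snoRNA pathway were counted beside the shares over all genes. Of all genes tested, edgeR called 1.54% in either direction, and 10.1% had an unadjusted p below 0.05. Among tested genes of at least 20 mean CPM these shares were 2.56% and 14.1%. Of 25 listed snoRNA hosts and relatives, 21 were tested, with a median log2 change of -0.18. Of these, 6 are among the 60 genes, and 2 (Taf1d and Cwf19l1) are protein-coding in the deposited table, with Taf1d also on the list of coding hosts. Of the 21, edgeR called 0, 1 was higher at an unadjusted p below 0.05 and DESeq2 called 1, Dancr, which was listed at 0 in both day 0 libraries and stood between 2.11 and 7.25 CPM at day 7. Of 40 protein-coding snoRNA hosts (median 0.01), 1 fell, Eif4a2, which encodes an RNA helicase of translation initiation. Eif4a2 stood at 1017 and 873 CPM at day 0 and between 578 and 736 CPM at day 7 (log2 change -0.54 ± 0.12, edgeR adjusted p = 0.0119). That call was lost without day 0 library 2 (log2 change -0.42, adjusted p = 0.367).

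Of 20 proteins that bind or assemble snoRNAs (median 0.01), edgeR called 0, 2 were higher at an unadjusted p below 0.05, and DESeq2 called 1, the assembly factor Pih1d1. Of 15 factors of nonsense-mediated decay, the pathway that degrades many spliced host RNAs, edgeR and DESeq2 called 0 and 1 was lower at an unadjusted p below 0.05 (median 0.01). The median of all genes tested was 0.04. Of 16 microRNA host genes listed, 3 were tested, and edgeR and DESeq2 called 0, with 0 at an unadjusted p below 0.05. All 3 had negative log2 changes, with a median of -1.76, at low levels. Mir17hg, host of the miR-17 to miR-92 cluster, stood at 18.1 and 29.8 CPM at day 0 and at 0.0371 to 14.4 CPM at day 7 (edgeR adjusted p = 0.620). Of 17 catalytic or structural small RNAs 1 was in the table and 0 were tested.

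Nuclear RNAs were led by Malat1 (Entrez 72289), which gathers at nuclear speckles, where splicing factors are stored. Malat1 stood at 1782 and 1479 CPM at day 0 and at 1291, 1191, 1178, 1381 and 1380 CPM at day 7. The groups did not overlap, though the gap between them was smaller than that between the day 0 libraries. It was not called (log2 change -0.37 ± 0.10, edgeR adjusted p = 0.0862), but was called lower with DESeq2 (0.00958), without a filter on low counts (0.0338) and without day 7 libraries 5 and 6 (log2 change -0.46, 0.0102). Neat1 (Entrez 66961), the scaffold of paraspeckles, stood at 217 and 179 CPM and at 99.5, 151, 134, 180 and 205 CPM, so that day 7 libraries 5 and 6 reached the day 0 level (log2 change -0.39 ± 0.22, adjusted p = 0.598). Of 8 tested members of a list of nuclear-retained RNAs, which also held the largely cytoplasmic Norad, edgeR called 0, 1 was lower at an unadjusted p below 0.05, and DESeq2 called 1, which was Malat1 both times. Of 16 proteins of speckles and paraspeckles edgeR called 0 (3 at an unadjusted p below 0.05, 2 of them lower), and DESeq2 called Srrm2, a speckle scaffold, lower.

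Norad (Entrez 347740), a cytoplasmic RNA that binds Pumilio proteins, stood at 253 and 231 CPM at day 0, at 228, 255 and 242 CPM in the day 7 libraries numbered 1, 2 and 3, and at 153 and 159 CPM in libraries 5 and 6. The low pair is again that with CD8 and myeloid transcripts, and libraries 1, 2 and 3 are those with higher hepatocyte sums. The part of any such cells was not tested. Tug1 (Entrez 544752), named for its rise with taurine in retina, stood at 182 and 212 CPM and 195 to 235 CPM. Oip5os1, known as Cyrano, which triggers decay of the microRNA miR-7, stood at 60.7 and 51.1 CPM and at 45.6 to 56.6 CPM in 4 day 7 libraries, with 19.6 CPM in library 5.

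Chaserr (Entrez 69170), which represses its neighbour Chd2 in cis, stood at 223 and 135 CPM at day 0 and at 105, 110, 115, 142 and 129 CPM at day 7. Only day 0 library 2 stood apart, and without it the log2 change was -0.18 in place of -0.60 ± 0.21 (edgeR adjusted p = 0.224 with all libraries). Chd2, which encodes a chromatin remodeller, stood at 264 and 289 CPM and between 205 and 316 CPM (log2 change -0.21 ± 0.16). Of the remaining curated names, Brip1os, Mirt1, Arhgap27os3, Fam120aos and Zfp33b had means from 20.3 to 102 CPM and log2 changes of 0.35, -0.43, 0.24, 0.17 and -0.15, none called.

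Of the genes with provisional symbols or gene numbers, the 5 most abundant were not called. AW112010 (Entrez 107350), which immune cells induce during inflammation and which in mouse also yields a short protein, stood at 543 and 479 CPM at day 0 and at 473, 459, 433, 568.2 and 587 CPM at day 7 (log2 change -0.04 ± 0.14). AI662270, which lies between Slfn3 and Slfn14 of a family of interferon-induced genes, ranged from 170.3 to 231 CPM. AI504432, beside the T cell potassium channel gene Kcna3, ranged from 166 to 311 CPM with its lowest value in day 0 library 2, and LOC118567527 from 265 to 417 CPM. AU020206 stood at 251 and 282 CPM at day 0 and 197 to 239 CPM at day 7, separate but not called (log2 change -0.34 ± 0.15, edgeR adjusted p = 0.440). Gm20559, beside the interferon-induced gene Samd9l, stood at 74.5 and 110 CPM at day 0, at 175, 194 and 131 CPM in the day 7 libraries numbered 1, 2 and 3, while in libraries 5 and 6 it was at 64.3 and 71.6 CPM. Of 15 tested genes on a list of immune non-coding RNAs, 3 of them (Ptprcap, Rmdn2 and 4930453N24Rik) protein-coding in the deposited table, edgeR called Gm19585 alone.

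In RefSeq 23 of the 60 genes overlap a protein-coding gene, 18 on the other strand and 5 on the same strand. These overlaps are of whole gene spans, and whether exons overlap was not examined. Whether counting used strand is not stated, so reads shared across strands by the 18 may not have been kept apart. Strand could not separate any shared reads of the other 5. Gm38733 (Entrez 105242554) lies opposite Actb, the beta-actin gene. Gm38733 stood at 87.3 and 122 CPM at day 0 and at 189, 153, 151, 180 and 246 CPM at day 7, separate but not called (log2 change 0.79 ± 0.22, edgeR adjusted p = 0.0737). Actb stood at 3383 and 4122 CPM at day 0 and between 5391 and 6095 CPM at day 7, and rose (log2 change 0.58 ± 0.08, adjusted p = 2.27e-04). Counts of Gm38733 were 2.58% and 2.97% of those of Actb at day 0 and between 2.78% and 4.04% at day 7, and the groups overlapped on that ratio.

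LOC118567469, which RefSeq does not list, and Gm12992, opposite Srsf4, were the other genes with every day 7 library higher, at 125 and 153 against 182 to 214 CPM and at 20.9 and 23.6 against 29.5 to 38.2 CPM. Gm15441, opposite Txnip, stood at 28.7 to 43.1 CPM at day 0 and 22.9 to 44.2 CPM at day 7, between 3.16% and 6.44% of Txnip over all libraries. 6530402F18Rik overlaps Ntng2 on the same strand. 6530402F18Rik stood at 54.1 and 60.1 CPM at day 0 and 22 to 44.2 CPM at day 7, and Ntng2 at 22.5 and 27.9 CPM and 4.90 to 16.3 CPM, both separate and neither called (log2 changes -0.82 ± 0.35 and -1.54 ± 0.67).

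Within day 7 the SD over the mean of single genes ran from 0.0695 (LOC118567469) to 0.701 (2010016I18Rik), with a median of 0.257, beside 0.224 for tested genes of at least 20 mean CPM. It was above 0.5 for 4 genes. AY036118, which overlaps a pseudogene of 18S ribosomal RNA, was 1 of them, with 14.6 and 66.4 CPM at day 0 and 18.4 to 82.4 CPM at day 7, so that the libraries of each group were spread widely.

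Summed over all 60 genes, the share of counts was 0.726% and 0.685% in the day 0 libraries and 0.646%, 0.608%, 0.590%, 0.645% and 0.675% in day 7 libraries 1, 2, 3, 5 and 6. All day 7 libraries lie below both day 0 libraries, with a mean difference of -0.0725 percentage points. Without Malat1 and AW112010 the shares were 0.493% and 0.489% at day 0 and between 0.429% and 0.479% at day 7. The 12 curated names other than snoRNA hosts took 0.302% and 0.264% at day 0 and 0.220% to 0.235% at day 7, while the 35 provisional symbols took 0.285% and 0.289% and 0.242% to 0.286%. Over all 2320 non-coding rows the share was 1.19% and 1.13% at day 0 and 0.973% to 1.18% at day 7, so there the groups overlapped. These sums are a description and carry no test.

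**Figure D4:**
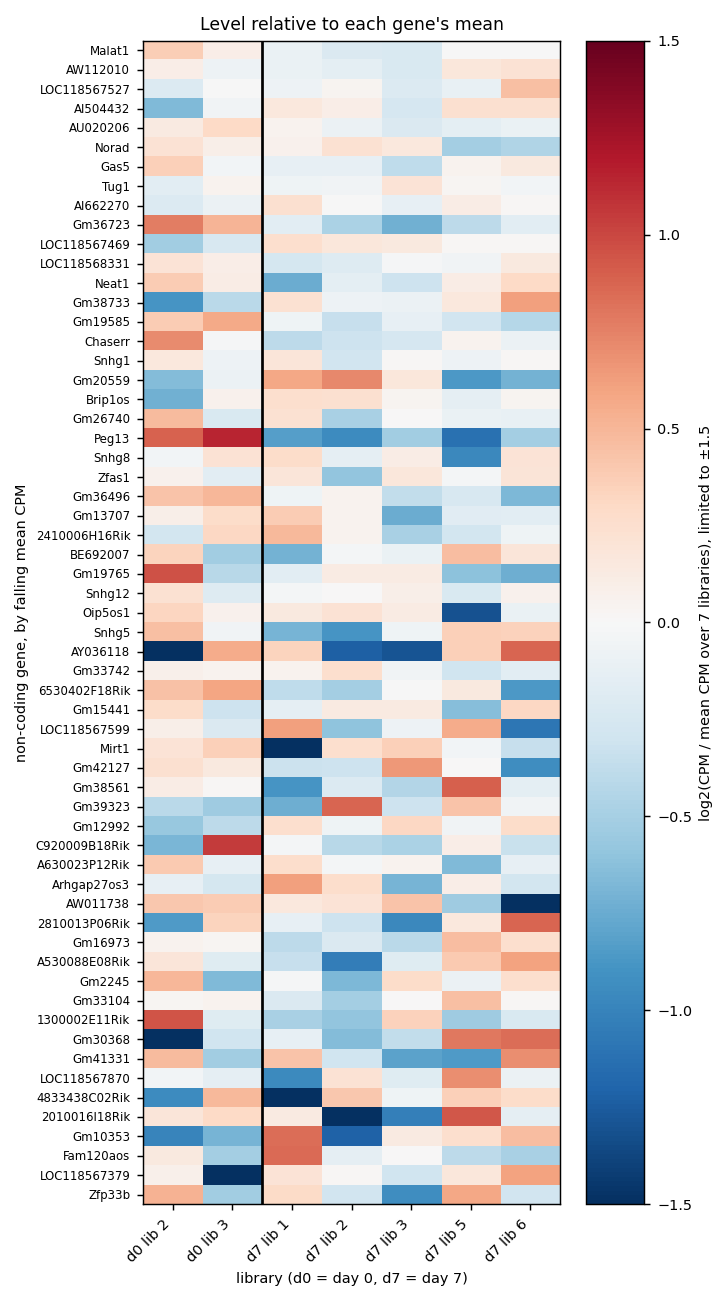
Level of each of the 60 genes (rows, by falling mean CPM) in each library (columns, day 0 left of the line) as log2 of CPM over the gene's mean over 7 libraries, with colours limited to 1.5 on either side. Peg13, Gm36723 and Gm19585 are high in both day 0 libraries, while Norad and Gm20559 are low in day 7 libraries 5 and 6.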

How the data were processed

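Sorted CD4 T cells had been sequenced as 7 libraries. The deposited table gives whole-number counts of reads by gene, not normalized by the authors. CASAVA 1.8, HISAT2 2.0.5 and featureCounts 1.5.0-p3 are named in the submitters' processing notes, without roles. How RNA was selected, the genome build, the annotation and the handling of strand: not given in the sources used here. Between 72.5% and 78.1% of counts from 2 to 200 were even, so small counts may stand for fewer fragments. Columns were assigned to a day by name. For all 21 pairs of libraries the chi-square per degree of freedom was at least 74.2, so none was a copy of another.

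Genes were filtered with filterByExpr, scaled by TMM (0.988 to 1.01) and compared between days by the quasi-likelihood test of edgeR 4.0.16 under R 4.3.3 (glmQLFit with robust estimates, then glmQLFTest). A call is a Benjamini-Hochberg adjusted p below 0.05 over 12929 genes. The common dispersion, 0.974, is high. The code was tested on simulated data. CPM use library totals. Standard errors are the log2 change over the root of F. Neighbours and snoRNA genes come from RefSeq (GRCm38.p6), strands from RefSeq or GENCODE M21. Promoters were listed for 47 of the 60 genes, and Peg13 has no entry. Other settings tried were scaling by RLE or upper quartiles, library totals unscaled, library sizes from coding genes, no filter, DESeq2 1.42.0, limma-voom (limma 3.58.1), each library left out, and day 7 libraries 5 and 6 left out.

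The genes and lists were chosen with earlier results of these data known. Named are all called genes, all curated names and snoRNA hosts, the 5 largest provisional symbols and called members of each list. Other genes, among them Gm36496, Gm38733, Gm12992, LOC118567469, 6530402F18Rik, Gm15441, Gm20559, AY036118, 2010016I18Rik, Mir17hg, Dancr, Pih1d1, Srrm2, Satb1, Id2, Chd2 and Actb, were chosen after their values were seen.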

Additional observations from a re-analysis of the deposited data

Results flagged for a closer look

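In 2 of the 60 genes 1 day 7 library stood far from the other 4, by a gap over the range above 0.71, where chance gives about 3 such genes in 60. Gm38561 was at 60.6 CPM in day 7 library 5 and at 17.5 to 29.3 CPM in the others. Fam120aos, which lies beside Fam120a on the opposite strand, was at 37.9 CPM in day 7 library 1 and at 15.1 to 21.2 CPM in the others. Neither was called between days.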

How the results depend on the processing

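Across 15 other settings Peg13 kept its call in all, Gm36723 in 14 and Gm19585 in 7. The 3 falls became 4 with DESeq2 or without a filter, where Malat1 joined them, and 2 with limma-voom. They stayed at 3 without day 7 libraries 5 and 6, with Malat1 in place of Gm19585. They became 1 without day 0 library 2 and were 1 to 3 with any 1 library left out. The 0 rises became 1 without a filter, 2 with DESeq2 and 0 to 1 with 1 library left out. A limit of 10 or 50 mean CPM gave 138 or 29 genes, with the same number called. All genes called higher (138) and lower (61) became 249 and 126 without a filter and 634 and 192 with DESeq2. With limma-voom 31 were called higher, and without day 7 libraries 5 and 6 there were 107 lower. With 1 library left out they were 87 to 153 and 30 to 59. The difference in summed share (-0.0725 points) was -0.0372 without Malat1 and AW112010. List calls moved as follows. The immune list had 0 with limma-voom, 0 without day 7 libraries 5 and 6 and 0 to 1 with 1 library left out. The nuclear-retained list had 1 without a filter, with DESeq2 and without libraries 5 and 6. Speckle proteins had 1 with DESeq2 and 0 to 1 with 1 library left out. Coding snoRNA hosts had 2 without a filter, 3 with DESeq2, 3 without libraries 5 and 6 and 0 to 1 with 1 library left out. The list of non-coding hosts and that of snoRNA-binding proteins had 1 each with DESeq2. The cause was not tested.

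Signs near 0 were unstable for uncalled genes. With 1 library left out, log2 changes ran from -0.35 to 0.25 for 2410006H16Rik, -0.12 to 0.055 for AW112010, -0.12 to 0.54 for Fam120aos, -0.20 to 0.032 for Snhg1, -0.27 to 0.15 for Snhg12, -0.27 to 0.0052 for Snhg8, -0.057 to 0.17 for Tug1, -0.063 to 0.16 for Zfas1 and -0.57 to 0.47 for Zfp33b. Without day 7 libraries 5 and 6 Zfas1 was at -0.030 and LOC118567527 at -0.010. No paired analysis was possible because the columns carry no replicate number of the sample titles. Only 2 day 0 libraries limit every comparison, and a library left out there leaves 1, assumed to vary like day 7.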
